A study of Mus musculus with 8 samples.

Results

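Regulatory T (Treg) cells restrain other immune cells, and the transcription factors that equip them for effector function and steer them toward particular helper lineages form a small network. The genes described here are 9 of its members, chosen by name: Batf, Irf4, Prdm1, Maf, Gata3, Rora, Bcl6, Eomes and Id2. They were located among the 53465 gene identifiers of the deposited files. Earlier results of these data were known when the choice was made, so counts of members against all genes are descriptions.

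BATF and IRF4 bind DNA together at composite sites and open the effector program of activated Treg cells. BLIMP-1, the product of Prdm1, and c-MAF act further along this program and are known as inducers of IL-10, whereas BCL6 and BLIMP-1 repress each other, and ID2 and ID3 hold E proteins away from DNA. GATA3, RORα and EOMES are best known from type 2 cells, innate lymphoid and tissue-resident cells, and cytotoxic T and NK cells, in that order.

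RNA was sequenced from Treg cells of C57BL/6 mice aged 3-4 weeks, taken from spleen and lymph nodes, with 0.1 M cells per library and 1 library per condition. All animals carried R26 CAG-FlpoER, a tamoxifen (TAM)-inducible Flpo recombinase driven by the ubiquitous CAG promoter, and the study asked how loss and restoration of BRG1 (Smarca4), the ATPase of the BAF chromatin remodeller, alters Treg cells. In the animals with the Brg F/ΔR genotype, Cre from the Foxp3 locus removes the floxed allele in Treg cells while the trapped ΔR allele is null and marked by GFP, and Flpo restores ΔR and extinguishes GFP. Folds were taken only within a total Treg experiment of 6 libraries and within an aTreg experiment of 2 libraries.

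The library labelled WT came from Brg F/+ Foxp3 YFP-Cre/+ animals, so its Treg cells are not free of Brg1 manipulation. Mosaic females supplied a Brg1-sufficient library (Brg F/ΔR Foxp3 +/+, a listed genotype without YFP-Cre) and a Brg1-deleted library (Brg F/ΔR Foxp3 YFP-Cre). The study describes these females as Foxp3 YFP-Cre/+, with YFP-Cre expressed in only part of their Treg cells through random X inactivation. Brg1-sufficient cells were the YFP− and Brg1-deleted cells the YFP+ subset. Mosaic folds thus also compare cells that use different Foxp3 alleles, and the part of this difference was not tested. Untreated Brg1-deleted cells came from rKO1 mice (Brg F/ΔR Foxp3 YFP-Cre/YFP-Cre). The study describes rKO1 mice as severely inflamed and mosaic and WT mice as healthy. Every comparison of rKO1 with mosaic or WT cells therefore also differs in host inflammation, whose part was not tested. After a single low dose of TAM, GFP+ cells that stayed Brg1-deleted (same genotype, treated) and GFP− cells that reexpressed Brg1 (labelled Brg F/+ Foxp3 YFP-Cre/YFP-Cre) were isolated on day 7. The aTreg libraries held activated Treg cells, sorted as CD44hi CD62Llo, from TAM-treated rKO1 mice on day 7. Of these, the library labelled Brg1-deleted has a description of Brg F/F and a file header that names WT, and the library labelled Brg1-reexpressed is described as Brg F/+. No source states how many animals were pooled per library.

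Libraries held between 16319338 and 24087147 recovered reads on genes, and between 9559 and 9969 genes reached 5 CPM, that is, reads scaled to a common library size. Smarca4 stood at 87.9 CPM in WT, 77.0 in mosaic Brg1-sufficient, 47.1 in mosaic Brg1-deleted, 44.0 in untreated rKO1, 36.0 in Brg1-deleted rKO1 after TAM and 58.0 in Brg1-reexpressed cells. These gene-wide counts include exons outside the deleted part. In aTreg cells Smarca4 was higher in the library labelled Brg1-deleted (71.2 CPM) than in that labelled Brg1-reexpressed (59.4 CPM), which goes against the labels, so every aTreg direction below is tied to the label alone. Foxp3, the defining Treg factor, ranged from 62.2 to 614 CPM over the 8 libraries and all 4 T cell markers reached 5 CPM in each. Foxp3 in WT was 83.8 CPM, 0.136 times the 614 CPM of mosaic Brg1-sufficient cells. Haemoglobin and other erythroid markers summed to 19200 CPM in the aTreg library labelled Brg1-reexpressed against 1074 CPM in the other. Myeloid markers summed to 779 and 488.5 CPM in the same order.

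Promoter windows show where these genes carry the letters that their own network reads. Of the 9 genes, 8 matched the RefSeq promoter table (GRCm38.p6), and Maf did not. The 250 bases before the annotated start were searched on both strands for TGANTCA, the AP-1 site bound by BATF with JUN proteins, for an IRF direct repeat of GAAA, 2 bases of any kind and GAAA, for CANNTG, the E box from which ID proteins keep E proteins away, and for TATAAA. The motif searches may overlap each other. Shown are the windows of the only member with an AP-1 match, the only member with an IRF repeat, the member with the most E boxes (Batf) and the E protein inhibitor Id2, with every match in capitals and the letters in the direction of transcription.

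Prdm1, chr10:44458749-44458998, minus strand: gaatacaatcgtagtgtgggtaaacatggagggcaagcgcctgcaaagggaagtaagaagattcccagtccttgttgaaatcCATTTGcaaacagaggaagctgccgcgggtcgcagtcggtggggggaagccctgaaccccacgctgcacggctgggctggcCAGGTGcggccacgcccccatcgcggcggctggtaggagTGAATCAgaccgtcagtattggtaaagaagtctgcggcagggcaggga
Eomes, chr9:118477939-118478188, plus strand: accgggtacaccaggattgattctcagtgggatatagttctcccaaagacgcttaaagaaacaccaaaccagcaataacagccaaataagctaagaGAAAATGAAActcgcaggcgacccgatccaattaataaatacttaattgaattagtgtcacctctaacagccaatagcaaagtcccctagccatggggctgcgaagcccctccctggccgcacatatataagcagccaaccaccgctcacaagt
Batf, chr12:85686470-85686719, plus strand: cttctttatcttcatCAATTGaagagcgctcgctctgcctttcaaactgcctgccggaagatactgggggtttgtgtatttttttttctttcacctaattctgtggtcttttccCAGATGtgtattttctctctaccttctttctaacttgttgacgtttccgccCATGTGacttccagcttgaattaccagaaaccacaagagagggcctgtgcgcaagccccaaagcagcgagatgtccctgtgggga
Id2, chr12:25096093-25096342, minus strand: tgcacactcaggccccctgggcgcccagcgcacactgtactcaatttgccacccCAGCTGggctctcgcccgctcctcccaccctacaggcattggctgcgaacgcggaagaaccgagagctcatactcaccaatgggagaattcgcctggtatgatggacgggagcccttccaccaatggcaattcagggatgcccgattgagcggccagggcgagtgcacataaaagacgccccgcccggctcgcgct

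The Prdm1 window holds TGAATCA 48 bases before the start, and such a match occurs in 6.749% of the 32851 promoters of the table. This RefSeq start lies inside the longer Prdm1 span of the GENCODE annotation. The Eomes window holds GAAAATGAAA 154 bases before the start, a repeat found in 2.977% of promoters. E boxes numbered 3 in Batf, 2 in Prdm1, 1 in Id2 and 1 in Bcl6, and at least 1 is present in 66.22% of promoters. Irf4 has TATAAA 26 bases before its start (12.37% of promoters). Gata3 and Rora had no match to any of these letters in the window. A match describes the sequence and is not a measured binding site.

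Levels per length separated the members into abundant and rare genes. On this scale, as deposited FPKM (fragments per kilobase of exon, scaled to library size), Batf was the most abundant of the 9 in 6 of 8 libraries and Id2 in the remaining 2. Batf spanned 83.8 to 361 FPKM and Id2 21.4 to 247 FPKM over the 6 total Treg libraries. Gata3 (14.8 to 22.9 FPKM), Maf (2.60 to 28.7), Rora (3.52 to 17.2), Irf4 (3.95 to 8.68) and Prdm1 (0.723 to 12.3) formed the middle. Bcl6 and Eomes reached at most 0.818 and 1.85 FPKM in these 6 libraries, and Bcl6 0.880 FPKM in the aTreg library labelled Brg1-deleted. Maf passed Gata3 only in the Brg1-reexpressed libraries of both experiments. Levels between libraries are given below in CPM after scaling, which are not comparable between genes.

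**Figure D1:**
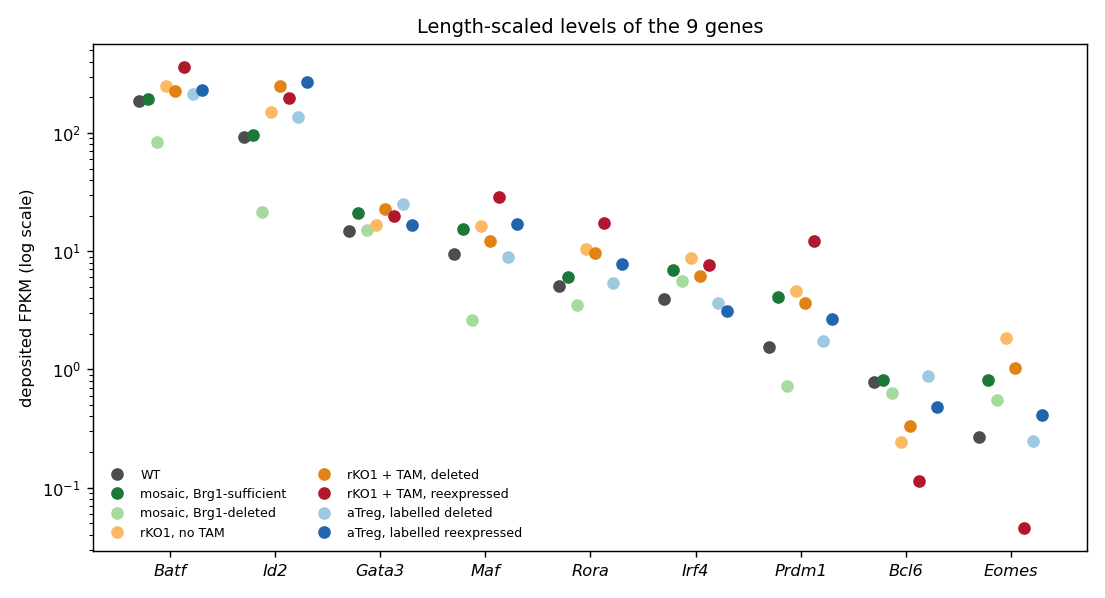
Deposited FPKM (log axis) of the 9 genes, ordered by their median, with 1 point per library and colours for the 8 libraries. Batf and Id2 lie above 20 FPKM in every library, while Bcl6 and Eomes lie below 2 FPKM in every library.

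A gene was tested where it reached 5 CPM in either library of a comparison and was called where the 2 libraries differed at least 2-fold. With 1 library per condition there is no replicate error and no p-value. The interval after each fold is the exact 95% binomial interval of the reads and covers counting error only. As a guide to the spread between libraries, each fold was set against a library-to-library range, the 95th percentile of the absolute log2 change over the 500 genes of closest expression, in WT against mosaic Brg1-sufficient cells or in the rKO1 pair of Brg1-deleted libraries, whichever was wider. These pairs are total Treg libraries, so for aTreg folds the range comes from the other experiment and is only a rough guide. Comparisons that share a library are not independent. A gene that reached 5 CPM in only 1 of the 2 libraries could be called in that direction alone, which applied to Prdm1 where mosaic Brg1-deleted cells were compared, and to Bcl6 and Eomes wherever they were tested. The same limit held for some genes of the lists below, among them Tbx21, Klrg1, Ebi3, Cxcr3, Cxcr5 and Tox2 in the mosaic. In rKO1 mice it held for Pparg, Bach2, Batf3, Fosl2 and Il21, among others, and in aTreg cells for Pparg, Havcr2 and Il4. Counts that include such genes are descriptions. In bulk RNA, fewer cells that express a gene and less RNA per cell cannot be told apart.

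In mosaic females, which hold Brg1-sufficient beside Brg1-deleted Treg cells, 4 of the 8 tested genes were called, and all 4 (Maf, Prdm1, Id2 and Batf) were higher in the Brg1-sufficient cells. Of all 10069 genes tested, 6.13% were called, and 4.05% were called higher in the Brg1-sufficient cells. All 8 tested members had a fold above 1, against 53.4% of all tested genes, and their median log2 fold was 0.99 against 0.03 over all genes. The 4 called genes exceeded the wider library-to-library range. Prdm1 passed the filter only through the Brg1-sufficient library, so it could be called only higher there. Eomes did not reach 5 CPM and was not tested.

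On day 7 after TAM, 2 of 7 tested genes were called in rKO1 mice, Prdm1 and Maf, and both were higher in Brg1-reexpressed than in Brg1-deleted cells. The share of all 10319 tested genes that was called was 12.8%, with 7.07% called higher. Batf and Rora were also higher, by less than 2-fold and beyond the range of the rKO1 pair alone. Gata3 and Id2 lay below 1. Bcl6 and Eomes were under 5 CPM in both libraries. The members' median log2 fold was 0.72, against 0.06 over all genes.

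In the aTreg experiment, 1 of 8 tested genes was called, Id2, at the edge of the threshold (2.01-fold), and the call was lost with library totals or the deposited scaling (log2 0.97 in both). Of all 10030 genes tested there, 6.44% were called and 4.41% were called higher. Maf was 1.96-fold higher, just outside the threshold. The order of the folds, from Id2 and Maf through Prdm1 and Rora to Batf, was thus led by other genes than in rKO1 total Treg cells, where Prdm1 led. Whether the order differed between the experiments was not tested.

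**Figure D2:**
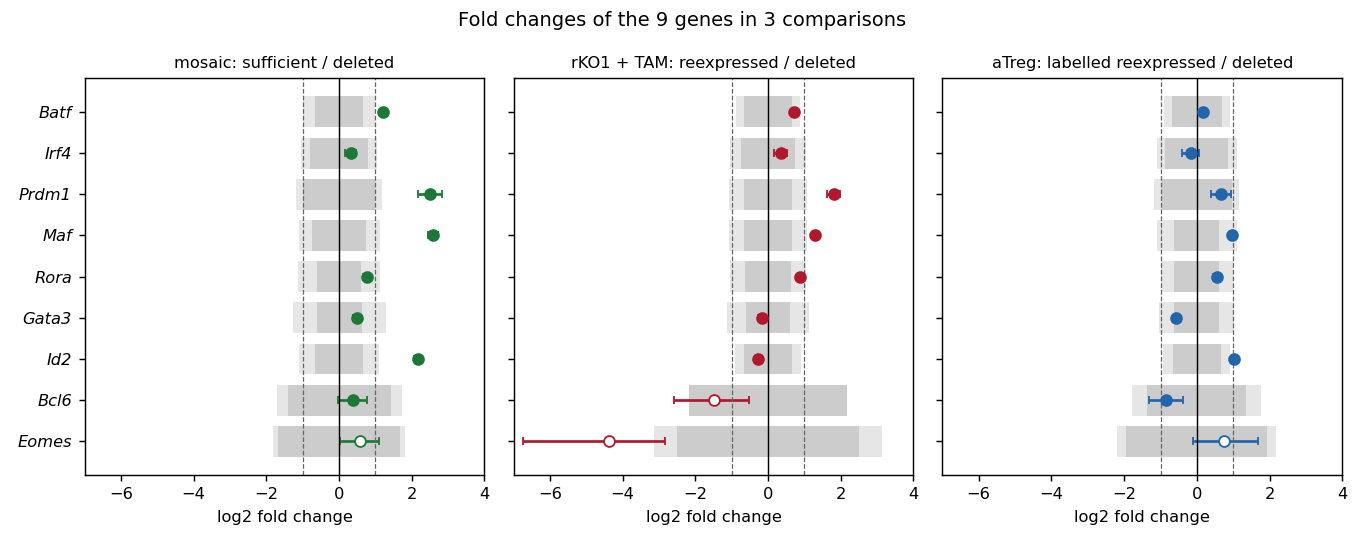
Log2 fold change of the 9 genes in mosaic, rKO1 and aTreg cells, with 95% counting intervals (bars), the library-to-library range of the rKO1 pair (dark grey), the range of the WT and mosaic pair where wider (light grey) and the 2-fold lines (dashed). Open circles mark genes under 5 CPM in both libraries; among tested genes Prdm1 and Maf lie outside the grey boxes in mosaic and rKO1 cells, Id2 in mosaic and aTreg cells, and Batf in the mosaic only.

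Batf encodes the AP-1 family factor that pairs with JUN proteins and with IRF4 (chr12:85686669-85709087, plus strand, 1406 exon bases). It stood at 237 CPM in WT, 266 in mosaic Brg1-sufficient, 115 in mosaic Brg1-deleted, 326 in untreated rKO1, 290 in Brg1-deleted rKO1 after TAM and 477 in Brg1-reexpressed cells. Mosaic Brg1-deleted cells were thus lowest and Brg1-reexpressed cells highest. The mosaic fold was 2.31 (2.20 to 2.41) and the rKO1 fold 1.65 (1.59 to 1.71). In aTreg cells Batf was 295 CPM in the library labelled Brg1-deleted and 330 CPM in that labelled Brg1-reexpressed, an interval of 1.08 to 1.16 for the fold. Loss of BRG1 in the mosaic and in untreated rKO1 mice went with different levels, since Batf was 2.83-fold higher (2.71 to 2.96) in the latter. These mice also differ in inflammation, whose part in this fold was not tested.

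Irf4 encodes the partner of BATF and is induced by T cell receptor signals (chr13:30749226-30766976, plus strand). The levels were 17.7 CPM in WT, 33.3 in mosaic Brg1-sufficient, 26.6 in mosaic Brg1-deleted, 39.4 in untreated rKO1, 27.4 in Brg1-deleted rKO1 after TAM and 35.0 in Brg1-reexpressed cells. Its highest library held 2.22 times its lowest, although none of its 5 steps between neighbouring levels reached 2-fold. Of these steps, 3 had overlapping counting intervals. The mosaic and rKO1 folds were 1.25 (1.12 to 1.39) and 1.28 (1.13 to 1.44), both inside the library-to-library range. Only against WT did Irf4 pass 2-fold, at 2.22 (1.94 to 2.55) in untreated rKO1 cells. In aTreg cells it was 17.5 CPM in the library labelled Brg1-deleted and 15.7 CPM in the other, a fold of 0.893 (0.760 to 1.05) whose interval includes 1.

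Prdm1 encodes BLIMP-1, a transcriptional repressor that drives terminal differentiation of lymphocytes (chr10:44437177-44528501, minus strand, 5579 exon bases). It was among the activation genes that the study picked on these samples, so its direction is not independent evidence. Its levels were 7.95 CPM in WT, 22.2 in mosaic Brg1-sufficient, 3.95 in mosaic Brg1-deleted, 23.7 in untreated rKO1, 18.5 in Brg1-deleted rKO1 after TAM and 64.6 in Brg1-reexpressed cells. Brg1-reexpressed cells stood apart at 2.73 times the next highest library and 16.4 times the lowest. The mosaic fold was 5.64 (4.52 to 7.10) and the rKO1 fold 3.49 (3.09 to 3.96). In aTreg cells Prdm1 was 9.50 CPM in the library labelled Brg1-deleted and 15.04 CPM in that labelled Brg1-reexpressed, 1.58-fold (1.31 to 1.93), within the library-to-library range.

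BLIMP-1 is also the factor of plasma cells, so their markers were read beside it. The 8 plasma cell markers summed to 416 CPM in WT, 562 in mosaic Brg1-sufficient and 112 in mosaic Brg1-deleted cells. In rKO1 mice the sum was 541 CPM untreated, 332 in Brg1-deleted cells after TAM and 1278 in Brg1-reexpressed cells. The lowest and the highest library were those of Prdm1. Most of each sum was Ighm (98.6 to 1236 CPM), and the other markers did not share one order. Between 1 and 5 of the 8 markers reached 5 CPM per library, 5 of them in Brg1-reexpressed cells, where Ighg1 was 15.1, Jchain 11.7, Derl3 6.73 and Igha 5.84 CPM. Untreated rKO1 cells held 136 CPM of Ighg1, 25.5 of Jchain and 11.2 of Mzb1, the highest values of the total Treg libraries. Derl3 and Igha were highest in Brg1-reexpressed cells, like Prdm1. The surface markers Sdc1 and Tnfrsf17 were at most 1.04 and 0.0411 CPM in these 6 libraries and both were at 0 in the Brg1-reexpressed library. In the aTreg libraries the sum was 1044 CPM in that labelled Brg1-deleted and 1190 CPM in the other. Ighm made up most of both sums, at 1001 and 997.9 CPM. In the same order, Ighg1 was 3.79 and 88.3 CPM and Jchain 23.35 and 85.8 CPM, while Sdc1 was 1.19 and 0 CPM. The part of plasma cell RNA in the Prdm1 values was not tested.

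Maf encodes c-MAF, a bZIP factor that drives IL-10 in several T cell subsets (chr8:115682942-115707794, minus strand). It stood at 71.5 CPM in WT, 125 in mosaic Brg1-sufficient, 20.96 in mosaic Brg1-deleted, 124 in untreated rKO1, 91.5 in Brg1-deleted rKO1 after TAM and 223 in Brg1-reexpressed cells. As with Prdm1, the mosaic Brg1-deleted library was lowest and the Brg1-reexpressed library highest, while untreated rKO1 and mosaic Brg1-sufficient cells had overlapping intervals. The mosaic fold of 5.95 (5.41 to 6.55) was the largest of the tested members, and the rKO1 fold was 2.43 (2.30 to 2.58), which fell under 2-fold when scaled by library total alone (log2 0.93). In aTreg cells it went from 72.2 CPM in the library labelled Brg1-deleted to 142 CPM in that labelled Brg1-reexpressed, 1.96-fold (1.84 to 2.10) and beyond the range of the rKO1 pair only. Exons of Maf overlap Gm15655 over 440 of 8241 bases.

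Rora encodes RORα, a nuclear receptor of tissue Treg cells and innate lymphoid cells (chr9:68653786-69388246, plus strand). The values were 60.2 CPM in WT, 77.2 in mosaic Brg1-sufficient, 45.0 in mosaic Brg1-deleted, 127 in untreated rKO1, 115 in Brg1-deleted rKO1 after TAM and 211 in Brg1-reexpressed cells. All 3 rKO1 libraries lay above the other 3. The mosaic fold was 1.72 (1.59 to 1.86) and the rKO1 fold 1.83 (1.74 to 1.94), neither reaching 2-fold, and both exceeded the range of the rKO1 pair only. Against WT the Brg1-reexpressed cells held 3.51 times (3.27 to 3.77) as much. In aTreg cells Rora was 69.6 CPM in the library labelled Brg1-deleted and 103 CPM in that labelled Brg1-reexpressed, a fold of 1.47 (1.37 to 1.58).

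Gata3, the factor of type 2 T cells that also maintains Foxp3 expression in Treg cells, had the flattest profile (chr2:9857078-9890034, minus strand). It was 53.8 CPM in WT, 82.5 in mosaic Brg1-sufficient, 58.6 in mosaic Brg1-deleted, 61.2 in untreated rKO1, 82.6 in Brg1-deleted rKO1 after TAM and 74.1 in Brg1-reexpressed cells. The highest library held 1.53 times the lowest, the narrowest span among the 9 genes. Its mosaic fold was 1.41 (1.31 to 1.51) and its rKO1 fold 0.897 (0.832 to 0.968), both inside the library-to-library range. In aTreg cells Gata3 was 98.7 CPM in the library labelled Brg1-deleted and 66.9 CPM in the other, a fold of 0.678 (0.631 to 0.729). Overlapping genes, among them the antisense-strand Gm13256, cover 232 of its 3978 exon bases, and no source states whether the counting used strand.

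Id2 encodes an inhibitor of E proteins that is kept high in effector T cells (chr12:25093799-25097140, minus strand). Its levels were 205 CPM in WT, 229 in mosaic Brg1-sufficient, 51.1 in mosaic Brg1-deleted, 340 in untreated rKO1, 548 in Brg1-deleted rKO1 after TAM and 451 in Brg1-reexpressed cells. The mosaic Brg1-deleted library lay 4.01-fold below the next library, and the Brg1-deleted rKO1 library after TAM was highest, so Brg1-deleted libraries held both the lowest and the highest value. The mosaic fold was 4.49 (4.21 to 4.78), while the rKO1 fold was 0.823 (0.799 to 0.848). In aTreg cells Id2 was 330 CPM in the library labelled Brg1-deleted and 664 CPM in that labelled Brg1-reexpressed, 2.01-fold (1.95 to 2.08). The 6.66-fold excess (6.27 to 7.08) of untreated rKO1 over mosaic Brg1-deleted cells was the largest of any member between these 2 Brg1-deleted libraries.

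Id3, the relative of Id2 that marks resting T cells, was 509 CPM in mosaic Brg1-sufficient and 1180 CPM in mosaic Brg1-deleted cells, a fold of 0.431 (0.422 to 0.441). In rKO1 mice it was 162 CPM in Brg1-reexpressed and 708 CPM in Brg1-deleted cells after TAM, a fold of 0.228 (0.219 to 0.238). Id2 and Id3 were thus called in opposite directions in the mosaic, while in rKO1 mice Id3 was called lower and Id2 was not called. In aTreg cells Id3 was 670 CPM in the library labelled Brg1-deleted and 758 CPM in the other (1.13-fold, 1.11 to 1.16). Of the 3 tested genes of the Id and E protein list in the mosaic and in rKO1 mice, Id3 was the only one called, although 2 were called in rKO1 mice by library total. Over all tested genes, 6.13% were called in the mosaic and 12.8% in rKO1 mice.

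**Figure D3:**
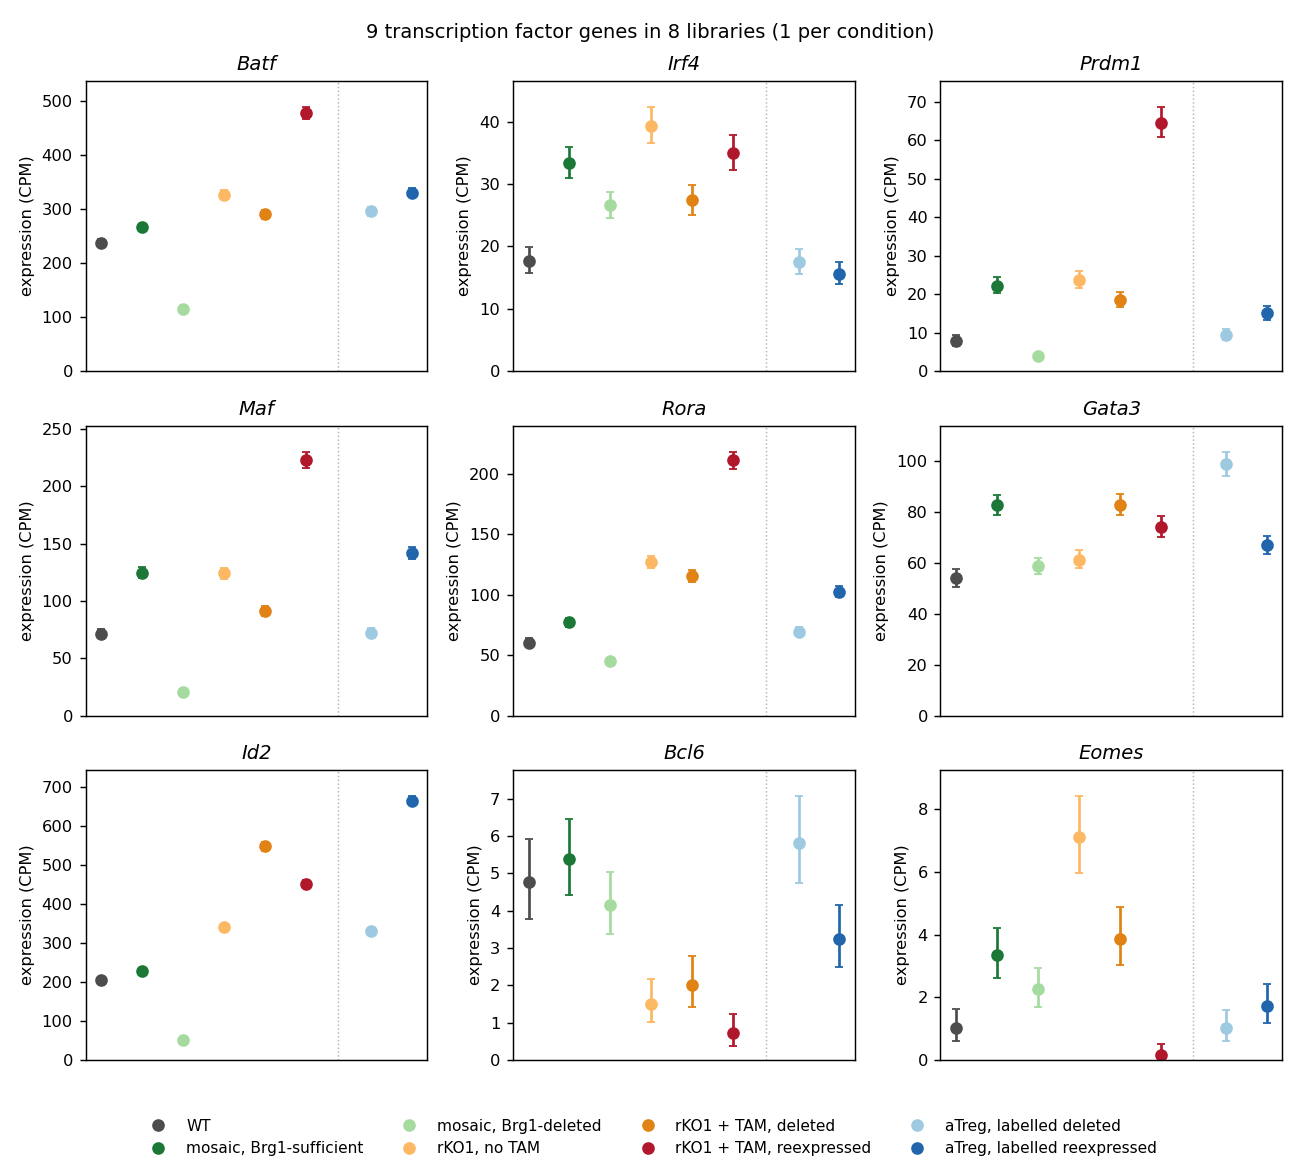
CPM of each gene in the 8 libraries (points, 1 per condition) with 95% counting intervals; axes start at 0 and differ between genes, and the dotted line parts the 6 total Treg from the 2 aTreg libraries. Of the total Treg libraries, Brg1-reexpressed rKO1 cells are highest for Batf, Prdm1, Maf and Rora, and mosaic Brg1-deleted cells are lowest for these genes and for Id2.

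Bcl6, the repressor that defines follicular T cells and counterpart of BLIMP-1, was close to the detection filter (chr16:23965052-23988852, minus strand). It stood at 4.76 CPM in WT, 5.37 in mosaic Brg1-sufficient, 4.15 in mosaic Brg1-deleted, 1.51 in untreated rKO1, 2.02 in Brg1-deleted rKO1 after TAM and 0.715 in Brg1-reexpressed cells. The 3 rKO1 libraries were below the other 3, the reverse of Rora. Among total Treg libraries it reached 5 CPM only in mosaic Brg1-sufficient cells, so it could be tested only against the library where it was highest. Relative to that library Bcl6 was 0.282 times (0.181 to 0.427) in untreated rKO1 and 0.133 times (0.0668 to 0.241) in Brg1-reexpressed cells, and the mosaic fold was 1.29 (0.982 to 1.71). The rKO1 fold after TAM, 0.354 (0.168 to 0.695), lay inside a library-to-library range that is wide at this level. In aTreg cells Bcl6 was 5.82 CPM in the library labelled Brg1-deleted and 3.25 CPM in the other, a fold of 0.559 (0.402 to 0.770).

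Eomes, a T-box factor of cytotoxic and NK cells, was a rare member, like Bcl6 (chr9:118478212-118486132, plus strand). It had 1.02 CPM in WT, 3.35 in mosaic Brg1-sufficient, 2.26 in mosaic Brg1-deleted, 7.10 in untreated rKO1, 3.87 in Brg1-deleted rKO1 after TAM and 0.179 in Brg1-reexpressed cells. These levels rest on 17, 71, 55, 136, 71 and 3 reads in that order, so only comparisons with the untreated rKO1 library reached the filter. There Eomes was 6.94 times WT (4.18 to 12.3) and 2.12 times mosaic Brg1-sufficient cells (1.58 to 2.87). Reexpressed over Brg1-deleted cells after TAM gave a ratio of 0.0462 with a counting interval of 0.00930 to 0.141, from 3 and 71 reads. In aTreg cells it was 1.02 CPM in the library labelled Brg1-deleted and 1.73 CPM in the other (18 and 34 reads).

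The 6 markers of CD8 T or NK cells summed to between 7.16 and 31.0 CPM in the 6 libraries, mostly Cd8b1. Their sum was 25.9 CPM in the aTreg library labelled Brg1-deleted and 23.5 CPM in that labelled Brg1-reexpressed. The NK receptor Ncr1 was 4.90 CPM in mosaic Brg1-sufficient and 6.65 CPM in Brg1-deleted rKO1 cells after TAM, yet 0.366 CPM in the untreated rKO1 library, where Eomes was highest. Ncr1 was at 0 in Brg1-reexpressed cells. The part of such cells in the Eomes values of the other libraries was not tested. The 4 markers of group 2 innate lymphoid cells, which use Gata3, Rora and Id2, summed to 31.3 CPM in untreated rKO1 and 28.2 CPM in Brg1-deleted rKO1 cells after TAM, and to between 8.22 and 13.0 CPM in the other total Treg libraries. Hpgds led the sum at 28.1 and 15.5 CPM in those rKO1 libraries, while Il5 was 0.783 and 7.96 CPM. In aTreg cells this sum was 8.25 CPM in the library labelled Brg1-deleted and 20.8 CPM in the other, with Hpgds at 7.07 and 19.5 CPM. The part of such cells in the values of these genes was not tested.

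Untreated rKO1 cells lack BRG1 in an inflamed animal whose Treg cells all carry Cre. The part of inflammation in the following counts was not tested. Against WT, 4 of 8 tested genes were called higher (Eomes, Prdm1, Irf4 and Rora), against 8.6% of all genes called higher and 15.7% in either direction. The call of Rora there was lost once the trend with exon length was removed (log2 0.70). Against mosaic Brg1-sufficient cells, Eomes was called higher and Bcl6 lower, 2 of 9 tested, where 17.3% of genes were called, 8.2% higher and 9.13% lower. Both passed the filter only through the library where they were high, so this count is a description. Between the Brg1-deleted libraries of these settings, 6 of 8 tested members (Id2, Prdm1, Maf, Eomes, Batf and Rora) were called higher in untreated rKO1 than in mosaic Brg1-deleted cells, against 8.18% called higher and 15.2% in either direction. Eomes against WT, and Eomes and Prdm1 against mosaic Brg1-deleted cells, also passed the filter only through the untreated rKO1 library. They could be called only higher there, so these counts are descriptions as well. Against both mosaic libraries Eomes lay inside the wider library-to-library range. All comparisons of this paragraph share the untreated rKO1 library, and their counts are not independent.

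Brg1-deleted rKO1 cells were also compared with and without TAM. None of 8 tested members was called, where 4.42% of genes were, and the nearest to the threshold were Eomes (0.545 times, 0.403 to 0.731) and Id2 (1.61-fold, 1.56 to 1.66). Between the Brg1-sufficient libraries, all 8 tested members were lower in WT than in mosaic cells, against 45.6% of all genes higher in WT. Of these, 1 was called (Prdm1, 0.357 times, 0.292 to 0.434), where 9.38% of genes were called and 5.16% called lower. Foxp3 was lower in WT as well, as given above, while myeloid markers summed to 483 CPM in WT and 167 CPM in mosaic Brg1-sufficient cells and erythroid markers to 466 and 140 CPM. Their part in these folds was not tested.

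All 7 tested members were higher in Brg1-reexpressed than in WT cells, and 5 of them were called (Prdm1, Rora, Maf, Id2 and Batf), where 17.1% of genes were called and 9.7% called higher. Prdm1 was 8.12-fold higher (6.77 to 9.81), and Batf was on the threshold at 2.01 (1.94 to 2.09), which it missed under each of the other scalings tried. Against mosaic Brg1-sufficient cells, 3 of 8 were called, namely Prdm1 at 2.90 (2.60 to 3.24), Rora at 2.74 (2.58 to 2.90) and Bcl6, which was lower. There 21.8% of genes were called, 10.8% higher and 11.0% lower. Bcl6 passed the filter only through the mosaic Brg1-sufficient library. Prdm1 and Rora were thus above both Brg1-sufficient references, whereas Maf was 3.12-fold above WT (2.92 to 3.33) and 1.79-fold above mosaic Brg1-sufficient cells (1.70 to 1.88).

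The surrounding transcription factors were read as lists. Over all tested genes, 6.13% were called in the mosaic (4.05% higher), 12.8% in rKO1 mice (7.07% higher) and 6.44% in aTreg cells (4.41% higher). Among 17 other Treg and lineage factors, 7 of 15 tested were called higher in mosaic Brg1-sufficient cells, none lower, and 4 were called when scaled by library total. The 7 included Tbx21 (T-bet, 4.72-fold, 3.38 to 6.72) and Nfil3 (2.46-fold, 2.13 to 2.85). Tbx21 passed the filter only through the Brg1-sufficient library, so it could be called only higher. In rKO1 mice Bhlhe40 (0.433, 0.397 to 0.471) and Pparg (0.255, 0.171 to 0.370), 2 of 16 tested, were called lower in Brg1-reexpressed cells. The median log2 fold of this list was 0.88 in the mosaic and 0.01 in rKO1 mice, the latter -0.34 by library total. In aTreg cells only Pparg was called, 4.26-fold higher (2.93 to 6.36) in the library labelled Brg1-reexpressed.

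Factors of naive or resting T cells were called in rKO1 mice and not in the mosaic, a difference that was not tested. The share of all tested genes called was 6.13% in the mosaic, 12.8% in rKO1 mice and 6.44% in aTreg cells. None of 11 was called in the mosaic, where Myb (0.632, 0.547 to 0.729) and Bach2 (0.741, 0.688 to 0.799) were the farthest from 1. In rKO1 mice 3 of 11 were called lower in Brg1-reexpressed cells, Bach2 (0.102, 0.0767 to 0.134), Tcf7 (0.145, 0.131 to 0.160) and Foxp1 (0.446, 0.413 to 0.482), against 5 by library total. BACH2 and BLIMP-1 oppose each other in lymphocytes, and Bach2 was in the study's own selection as well. In aTreg cells none of 11 was called, and Tcf7 was 0.638 times (0.617 to 0.661) as high in the library labelled Brg1-reexpressed.

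Calls among relatives and partners of IRF4 and BATF came mainly from rKO1 mice. None of 8 tested was called in the mosaic, with Junb 1.81-fold higher (1.75 to 1.88). In rKO1 mice 1 of 10 was called higher in Brg1-reexpressed cells, the zinc finger factor Ikzf3 (Aiolos, 2.67-fold, 2.50 to 2.86), and 3 were called lower, Batf3 (0.169, 0.119 to 0.235), Fosl2 (0.309, 0.237 to 0.398) and Jun (0.355, 0.319 to 0.394). Of all genes tested, 6.13% were called in the mosaic, 12.8% in rKO1 mice and 6.44% in aTreg cells. Junb was lower there in Brg1-reexpressed cells at 0.526 (0.516 to 0.536), short of the threshold. Jun was the only one of 8 called in aTreg cells (0.212, 0.177 to 0.253). The AP-1 members Jun, Junb and Fosl2 were also called higher in Brg1-deleted rKO1 cells after TAM than in the separate library of untreated rKO1 cells.

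**Figure D4:**
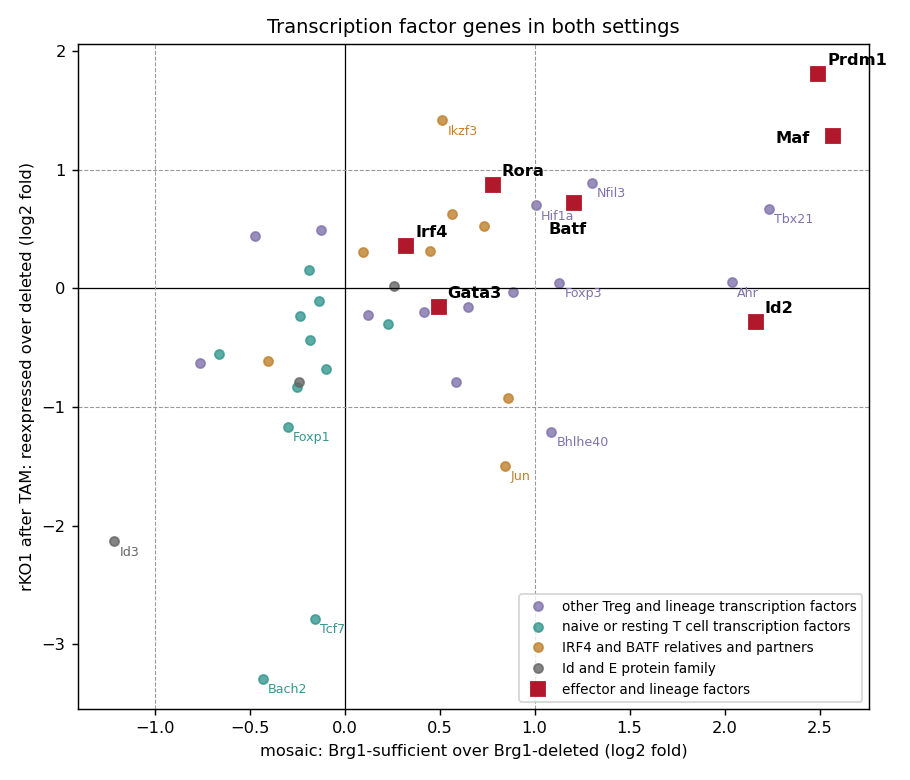
Log2 fold of transcription factor genes in the mosaic (x axis) against rKO1 mice after TAM (y axis), for genes tested in both, with no library shared between the axes. Squares are the members described here and dots are genes reported here from 4 lists; Prdm1 and Maf pass 2-fold on both axes, whereas Id2 passes it on the x axis only.

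Products of effector Treg cells include known targets of these factors. As a background, 4.05% of all tested genes were called higher in the mosaic, 7.07% in rKO1 mice and 4.41% in aTreg cells. In the mosaic 11 of 17 tested were called higher with BRG1, among them Klrg1 (20.7-fold, 15.9 to 27.5), Ebi3 (19.6-fold, 13.8 to 28.8), Cxcr3 (18.6-fold, 15.2 to 23.1) and Tigit (16.3-fold, 13.7 to 19.6). Klrg1, Ebi3 and Cxcr3 passed the filter only through the Brg1-sufficient library, so they could be called only higher. In rKO1 mice 10 of 18 were called higher, led by Gzmb (granzyme B, 7.28-fold, 7.09 to 7.48), and Il1rl1 was called lower. In aTreg cells 6 of 17 were called higher in the library labelled Brg1-reexpressed, with Gzmb at 12.2-fold (11.5 to 12.9) and Il10, a target of BLIMP-1 and c-MAF, at 2.69-fold (2.30 to 3.16). Gzmb, Icos, Tigit, Klrg1, Ccr8, Cxcr3 and Havcr2 belong to the genes the study picked on these samples, so their direction is not independent evidence.

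Follicular genes and BCL6 cofactors gave 2 of 8 called higher in mosaic Brg1-sufficient cells, Cxcr5 (11.1-fold, 7.63 to 16.6) and Tox2 (4.07-fold, 3.30 to 5.06), while Bcl6 itself was not called. Cxcr5 and Tox2 passed the filter only through the Brg1-sufficient library. In rKO1 mice 2 of 8 were called lower, Cd200 (0.483, 0.449 to 0.520) and Il21, which had 3 reads in Brg1-reexpressed and 141 in Brg1-deleted cells, a ratio of 0.0232 (0.00474 to 0.0693). Il21 passed the filter only through the Brg1-deleted library. None of 8 was called in aTreg cells. Among all tested genes, 6.13% were called in the mosaic, 12.8% in rKO1 mice and 6.44% in aTreg cells. Of 12 helper cytokines and receptors few reached the filter. Ccr6 was called 2.73-fold higher (2.52 to 2.95) in mosaic Brg1-sufficient cells, and Il4 was 0.273 times (0.234 to 0.318) as high in Brg1-reexpressed rKO1 cells but 3.68-fold higher (2.63 to 5.24) in the aTreg library labelled Brg1-reexpressed.

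Across the 6 total Treg libraries, Batf, Prdm1, Maf, Rora and Id2 followed each other, with Pearson r of log2 CPM between 0.824 (Prdm1 and Id2) and 0.979 (Batf and Maf). Bcl6 ran against Rora (r = -0.912), and Eomes and Gata3 followed none of the other members with r above 0.607. These are descriptions over 6 points that share one scaling, and for Batf, Prdm1, Maf and Rora the lowest point is the mosaic Brg1-deleted library and the highest the Brg1-reexpressed library.

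Among all genes that varied at least 2-fold and reached 20 CPM, the profile nearest to that of Batf was Cxcr3 (r = 0.9997), a chemokine receptor. Prdm1 was nearest to Crmp1 (0.997) and Tnfaip8 (0.985), and Maf to Atxn1 (0.999), Tigit (0.995) and Chst2 (0.994). Rora was nearest to Adap1 (0.994), Myl4 (0.991) and Zbtb32 (0.991), and Id2 to Csf1 (0.978), Casp4 (0.972) and Il10 (0.971). Irf4 was nearest to Itgae (0.980), which encodes the integrin CD103, and Eomes to Kmt2a (0.981). Gata3 had no close companion, its best being the histone gene Hist1h1c (0.893), and Bcl6 was nearest to Gm20324 (0.989).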

How the data were processed

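RNA from Treg cells was converted to cDNA with SMART-Seq v4 and sequenced on an Illumina HiSeq in 8 libraries, 1 per condition. The authors deposited FPKM values per Ensembl gene. The submitters' processing notes name HISAT2 2.0, StringTie 1.3.3b, featureCounts 1.5.0-p3 and mm10. Whole reads were recovered as FPKM times merged exon length (GENCODE M21) times 1 total per library: values were whole within 0.02 reads for 93.4% of 25995 genes in total Treg and 100% of 21219 in aTreg libraries, and for all 9 members. Of 53465 identifiers, 53274 were in the annotation. The design's no-replicate plan was kept: an own trimmed mean of M-values (TMM) scaling over the libraries of an experiment (trims 30% and 5%), a prior of 0.125 reads in log2 folds, at least 5 CPM in either library, calls at 2-fold, and exact 95% intervals of the reads, which cover counting error only since reads carry no molecular identifiers. In all, 10 comparisons were made. The procedure was tested on simulated data. Named genes were the members, up to 4 of each list with the largest fold in the mosaic, rKO1 and aTreg comparisons, and the 3 nearest profiles of each member. Some of these are not reported here. Genes named in addition for their call, or as markers, were chosen after their values were seen. Members and lists were chosen with earlier results of these data known. Python 3.11.15 was used with SciPy 1.17.1, NumPy 2.4.6 and pandas 2.3.3. Alternatives changed the scaling, filter, fold threshold, length trend and log scale.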

Additional observations from a re-analysis of the deposited data

Results flagged for a closer look

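For 3 of the genes the same contrast gave opposite directions in different settings, with both counting intervals clear of 1. With 1 library per condition these differences were not tested. Both Gata3 folds, the mosaic Eomes fold and the rKO1 Id2 fold lay inside the library-to-library range. Gata3 was higher with BRG1 in the mosaic and lower in rKO1 mice, a difference of 0.651 between the log2 folds. Eomes differed by 4.95 between the same settings, from low reads. Id2 was higher with BRG1 in the mosaic and slightly lower in rKO1 mice, a difference of 2.45. Id2 was also lower in rKO1 total Treg cells but higher in the aTreg library labelled Brg1-reexpressed, a difference of -1.29.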

How the results depend on the processing

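No called fold of a member changed sign under any alternative. Calling at 1.5-fold gave 2030 genes in place of 617 in the mosaic and 3182 in place of 1318 in rKO1 mice after TAM. The same threshold gave 3816 (1643) for untreated rKO1 against WT, 3965 (1811) against mosaic Brg1-sufficient, 3414 (1579) against mosaic Brg1-deleted, 1587 (455) for TAM against none, 3475 (1767) for reexpressed against WT, 4546 (2247) against mosaic Brg1-sufficient, 2905 (950) for WT against mosaic and 1992 (646) in aTreg cells, with the 2-fold count in parentheses. In the same order of 10 comparisons, a filter at 1 CPM gave 1563, 2711, 3267, 3498, 3071, 1533, 3231, 3711, 2067 and 1734 genes, and no filter gave 7886, 8916, 9600, 10003, 9653, 7463, 9254, 10155, 8295 and 7616. Members called at 1.5-fold numbered 4 in rKO1 mice after TAM (2 at 2-fold), 2 for TAM against none (0), 6 for reexpressed against mosaic Brg1-sufficient (3), 4 for WT against mosaic (1) and 4 in aTreg cells (1).

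Scaling by library total only left 1 member called in rKO1 mice (Maf lost, log2 0.93), 3 against WT (Batf and Id2 lost) and 0 in aTreg cells (Id2 lost, 0.97), and the deposited FPKM scaling also left 0 in aTreg cells. Id2 there was also under 2-fold with the length trend removed (0.92) and on log2(FPKM + 1) (0.96), while Maf there passed with the length trend removed (1.04). The reexpressed-over-WT call of Batf was lost under every alternative scaling, length correction and log scale tried, and that of Rora in untreated rKO1 over WT with the length trend removed (log2 0.70) and on log2(FPKM + 1) (0.93). Irf4 in the same comparison (0.97) and Prdm1 in WT against mosaic (-0.99) also lost their call on log2(FPKM + 1), as did Bcl6 and Eomes throughout their called comparisons except Eomes over WT. Higher against lower calls were 408 and 209 in the mosaic (306 and 308 by library total) and 730 and 588 in rKO1 mice (372 and 1268), where that scaling moved the median of all genes by -0.133 and -0.350. With the library total they were 1658 and 467 for untreated rKO1 against WT (900 and 743), 1636 and 459 against mosaic Brg1-sufficient (857 and 954), 1262 and 471 against mosaic Brg1-deleted (852 and 727), 194 and 356 for TAM against none (222 and 233) and 788 and 935 for reexpressed against WT (1000 and 767). The FPKM scaling gave 541 and 408 for WT against mosaic (427 and 523). Calls gained were Rora in rKO1 mice after TAM (1.17) and Maf in reexpressed against mosaic Brg1-sufficient cells (1.05) with the length trend removed, Maf (1.09) and Id2 (1.03) in untreated rKO1 against WT and Rora against mosaic Brg1-sufficient (1.07) by library total, and Id2 in reexpressed against mosaic Brg1-sufficient (up to 1.04). Folds beyond the library-to-library range numbered 26 over the 8 comparisons other than the reference pairs, and 37 by the rKO1 pair alone. The cause of these shifts was not tested.

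No paired analysis was possible because the labels give no replicate numbers and each condition has 1 library, which also left no replicate to leave out. Depth limits Bcl6 and Eomes, with at most 136 reads for Eomes.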
